A study of Mus musculus with 28 samples.

Results

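Igf1, the receptor genes Igf1r and Insr, and the binding protein genes Igfbp2, Igfbp3, Igfbp4, Igfbp5, Igfbp6 and Igfbp7 were followed through development of the mouse peripheral nerve. These 9 genes were taken by name from the 41605 genes of the count table, and all 9 were among the 17700 genes that passed the filter on low counts. The data were bulk poly-A RNA sequencing counts from 28 libraries, 4 at each of 7 stages, labelled as embryonic days (E) 13 and 17 and postnatal days (P) 1, 5, 14, 24 and 60. All animals were C57bl6/J wild-type mice, none was treated, and stage was the difference between the groups. An E13 library held various nerves distal to the dorsal root ganglia of 2 embryos, unstripped, whereas the labels name sciatic nerve at every stage. An E17 library held the sciatic nerves of 2 embryos and a postnatal library those of 1 mouse. From E17 on the outer sheaths (epineurium and perineurium) had been stripped mechanically as far as possible, to enrich for endoneurium, where axons and Schwann cells lie. Each stage had 2 libraries from males and 2 from females, but which ones is not given in the labels.

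Insulin-like growth factor 1 (IGF1) is a secreted peptide made by the liver under growth hormone and also locally in many tissues. It binds the receptor tyrosine kinase IGF1R, which can also pair with the related insulin receptor INSR, and both signal through IRS adaptors to PI3K, AKT and mTORC1. The IGF binding proteins are secreted and hold the IGFs outside the cell, where they can limit or prolong access to the receptor. IGFBP6 prefers IGF2, and IGFBP7 is a related protein that binds IGFs weakly. In nerve, IGF1 is known as a survival factor for Schwann cells and a promoter of myelination.

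The 4 binding protein genes whose levels moved most along the timeline, Igfbp2 and Igfbp3 downwards after birth and Igfbp6 and Igfbp7 upwards, are shown by the 250 bases before a RefSeq start, because these stretches differ in base composition and in the short motifs they hold. The sequences are those of RefSeq on GRCm38.p6, read on the strand of the gene. Capitals mark matches, on either strand, to the core promoter element TATAAA, the GC box motif GGGCGG, the E-box CACGTG or the STAT site core TTCNNNGAA, and no matches to different motifs overlapped.
Igfbp2, chr1:72824230-72824479, plus strand: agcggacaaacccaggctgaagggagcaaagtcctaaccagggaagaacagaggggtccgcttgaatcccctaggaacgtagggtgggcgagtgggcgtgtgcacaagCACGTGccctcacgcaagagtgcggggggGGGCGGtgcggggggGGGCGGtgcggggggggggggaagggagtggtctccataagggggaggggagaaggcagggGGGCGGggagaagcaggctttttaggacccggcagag
Igfbp3, chr11:7213924-7214173, minus strand: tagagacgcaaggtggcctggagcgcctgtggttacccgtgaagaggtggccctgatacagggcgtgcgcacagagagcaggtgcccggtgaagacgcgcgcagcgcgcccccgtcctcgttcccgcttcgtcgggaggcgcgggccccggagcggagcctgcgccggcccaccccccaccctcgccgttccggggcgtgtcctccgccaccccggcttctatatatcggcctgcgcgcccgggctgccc
Igfbp6, chr15:102143936-102144185, plus strand: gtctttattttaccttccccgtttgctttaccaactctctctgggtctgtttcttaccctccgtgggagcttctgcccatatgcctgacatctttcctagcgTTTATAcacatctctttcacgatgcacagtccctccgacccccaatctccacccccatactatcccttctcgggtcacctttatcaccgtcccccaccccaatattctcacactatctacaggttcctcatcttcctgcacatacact
Igfbp7, chr5:77408046-77408295, minus strand: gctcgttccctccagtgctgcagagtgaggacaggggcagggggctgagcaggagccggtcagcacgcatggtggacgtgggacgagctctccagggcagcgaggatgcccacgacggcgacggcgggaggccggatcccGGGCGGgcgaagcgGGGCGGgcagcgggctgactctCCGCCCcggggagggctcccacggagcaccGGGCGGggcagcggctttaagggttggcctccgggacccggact
The Igfbp2 stretch held 3 GC boxes and 1 E-box, the Igfbp7 stretch 4 GC boxes, and the Igfbp6 stretch 1 match to TATAAA, on the opposite strand, where it reads TTTATA. None of the motifs was in the Igfbp3 stretch. Igfbp2 has a second RefSeq start, whose 250 bases (chr1:72825137-72825386) held none of the motifs and had a GC content of 56.4%. Over the same 250 bases of all 32851 RefSeq starts, TATAAA was in 12.4%, GGGCGG in 32.7%, CACGTG in 6.02% and TTCNNNGAA in 7.02%. In the stretches printed GC content was 67.2% for Igfbp2, 73.2% for Igfbp3, 74.0% for Igfbp7 and 49.6% for Igfbp6. The Igfbp6 start in RefSeq lies 176 bases from the start in GENCODE M21. These matches are letters in a window and no binding was measured.

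Levels are given as CPM (counts per fixed total) on library sizes scaled by TMM, and differences as log2 fold changes (later minus earlier stage) with their SE from 1 edgeR quasi-likelihood fit of all 28 libraries. Rises and falls were called at a change of at least 2-fold with a p under 0.05 after Benjamini-Hochberg adjustment across the 17700 genes. Total counts ran from 13899895 to 37662780 per library, and reads on the 9 genes from 3 (Igfbp2 at P60) to 106948 (Igfbp5 at E13). The summed level of 5 Schwann cell markers was 177 to 344 CPM at E13 and 2368 CPM or more in each later library, while 4 neuron cell body markers summed to 226 to 353 CPM at E13 and at most 26.6 CPM later. Erythroid markers (5 genes) summed to 661 to 1460 CPM in E13 replicates 1 to 3 and 6723 CPM in replicate 4, to 357 to 999 CPM at E17 and to at most 343 CPM after birth. E13 replicate 2 held 511 CPM of 6 skeletal muscle markers, against 21.3 to 41.1 CPM in the other E13 libraries. E13 replicates 1 and 4 and P1 replicate 1 differed from their stage by a trend with GC content, with slopes of -0.929, 0.721 and -0.424 log2 units per 10 points of GC, and the other 25 libraries had slopes between -0.162 and 0.196. P24 replicate 2 was the lowest P24 library in the marker sums of 7 cell types, given below beside Igfbp6 and Igfbp7.

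Igf1, the ligand (chr10:87858265-87937042, plus strand, GRCm38), was low at E13, peaked at E17 and P1, and declined to its lowest level at P60. At E13 it stood at 53.6, 48.2, 23.8 and 15.2 CPM in replicates 1 to 4. It was highest in replicate 1 and lowest in replicate 4, the libraries with the lowest and highest GC slopes, and its longest transcript is lower in GC than those of the other 8 genes. Its E13 to E17 difference was log2 2.44 with the GC trend removed. Its E17 levels were 209, 179.9, 171 and 133 CPM, and its P1 levels 215, 148, 157 and 143 CPM. Every E17 library was thus above every E13 library, whereas E17 and P1 overlapped. Levels of Igf1 at P5 were 105, 121, 113 and 104 CPM, at P14 58.3, 38.9, 25.6 and 43.7 CPM, and at P24 44.3, 29.8, 72.7 and 61.5 CPM. By P60 they were 23.9, 18.6, 17.5 and 24.5 CPM. The P5 libraries lay apart from both P1 and P14, P14 and P24 overlapped, and P60 was below all P24 libraries. Igf1 rose 4.92-fold from E13 to E17 (log2 2.30 ± 0.30, edgeR adjusted p = 2.8e-07). It fell by 1.41 ± 0.30 on the log2 scale from P5 to P14 (edgeR adjusted p = 0.00058) and by 1.302 ± 0.30 from P24 to P60 (edgeR adjusted p = 0.00302). Over the whole postnatal span, P60 against P1, it fell by 2.97 ± 0.32 on the log2 scale, a 7.82-fold change (edgeR adjusted p = 5.7e-09). The steps between E17 and P1 (log2 -0.07), P1 and P5 (-0.58) and P14 and P24 (0.33) did not pass the test. In bulk nerve, fewer cells of a type and less RNA per cell cannot be told apart, and this holds for each change below.

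**Figure D1:**
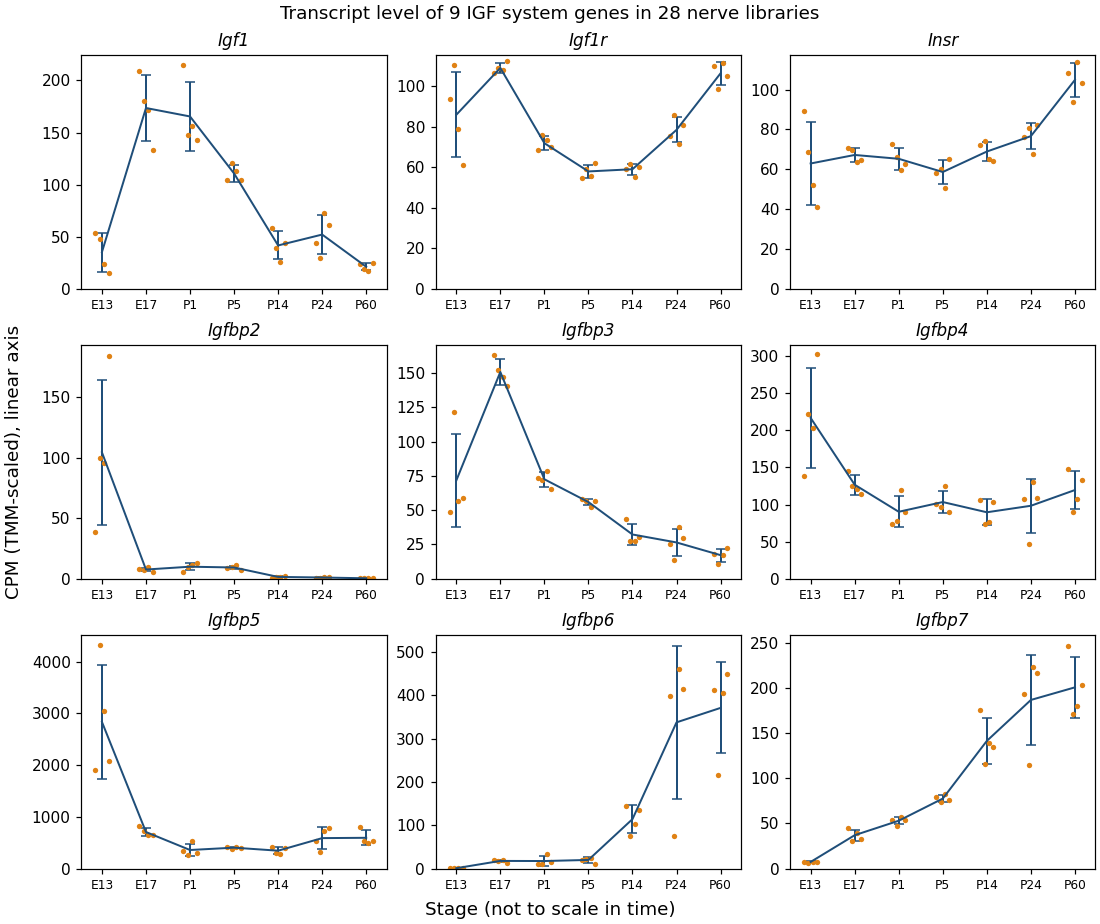
Transcript levels of the 9 genes in TMM-scaled CPM (linear axes, one panel a gene) at 7 stages; points are the 4 libraries of a stage, and lines join stage means with SD bars. Igf1 and Igfbp3 peak at E17 at 174 and 151 CPM, Igfbp2 and Igfbp5 are highest at E13, and Igfbp6 and Igfbp7 are highest at P60.

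Over all 7 stages the receptor genes varied least, although from E17 to P60 the range of Igfbp4 (1.41-fold) was smaller than that of Igf1r (1.88-fold) or Insr (1.79-fold). Igf1r, the IGF1 receptor (chr7:67952827-68233668, plus strand), was at 93.7, 110.2, 78.6 and 60.9 CPM at E13 and at 107, 109, 108 and 113 CPM at E17. It read 68.6, 75.9, 73.3 and 69.7 CPM at P1, 54.6, 59.3, 55.8 and 62.0 CPM at P5, and 59.2, 61.5, 55.2 and 60.2 CPM at P14. It was at 75.4, 85.8, 71.6 and 81.0 CPM at P24 and at 109.9, 98.8, 112 and 105 CPM at P60. The order of its stages thus had E17 and P60 overlapping at the top and P5 and P14 overlapping at the bottom. None of its steps reached 2-fold, so by the rule it neither rose nor fell in any comparison. Differences below 2-fold with an edgeR adjusted p under 0.05 were log2 -0.60 ± 0.11 from E17 to P1 (adjusted p = 0.0002), 0.41 ± 0.11 from P14 to P24 (adjusted p = 0.0307) and 0.44 ± 0.11 from P24 to P60 (adjusted p = 0.00835). The E13 to E17 difference of 0.34 ± 0.11 (edgeR adjusted p = 0.0111) ran from 0.09 to 0.46 over the alternative analyses, with an adjusted p of up to 0.552, and the adjusted p of the P14 to P24 difference reached 0.118.

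Insr, the insulin receptor (chr8:3122061-3279617, minus strand), was at 89.4, 68.8, 52.2 and 41.1 CPM at E13. It was highest there in replicate 1 and lowest in replicate 4, the libraries with the lowest and highest GC slopes. From E17 to P24 its stage means stayed between 58.6 ± 6.06 CPM (SD, n = 4) at P5 and 76.6 ± 6.62 CPM at P24. At P60 it read 108, 93.9, 114 and 103 CPM, above every P24 library, which read 76.0, 80.5, 67.5 and 82.4 CPM. P60 was the one stage set apart for this gene, since all other neighbours in its order of levels overlapped. The change from P24 to P60 was 0.45 ± 0.15 on the log2 scale (edgeR adjusted p = 0.036) and that from P1 to P60 0.68 ± 0.15 (edgeR adjusted p = 0.00025), both below 2-fold. The adjusted p of the first reached 0.119 over the alternatives. Igf1r over the latter span was 0.57 ± 0.11 (edgeR adjusted p = 0.00012).

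Because IGF1R and INSR chains can form hybrid receptors, the ratio of Igf1r to Insr counts was taken within each library, where no scaling between libraries enters. It is a ratio of counts, not of molecules, since the exons counted span 16791 bases for Igf1r and 13746 bases for Insr. The ratio was 1.51, 1.57, 1.70 and 1.74 at E17 and 0.943, 1.15, 1.23 and 1.12 at P1, with no overlap. Its geometric mean was 1.39 and 1.62 at the embryonic stages, 1.10 and 0.991 in the first postnatal week (P1 and P5), 0.858 at P14, and 1.02 at both P24 and P60. The E17 to P1 difference (log2 -0.56) and the P14 to P24 difference (log2 0.26) each reached 0.029 in an exact permutation test, two-sided, which is the smallest p that 4 against 4 libraries allow. Adjusted over the 7 comparisons both became 0.1, so no ratio difference passed the correction, and the other 5 had exact p from 0.057 to 0.77.

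**Figure D2:**
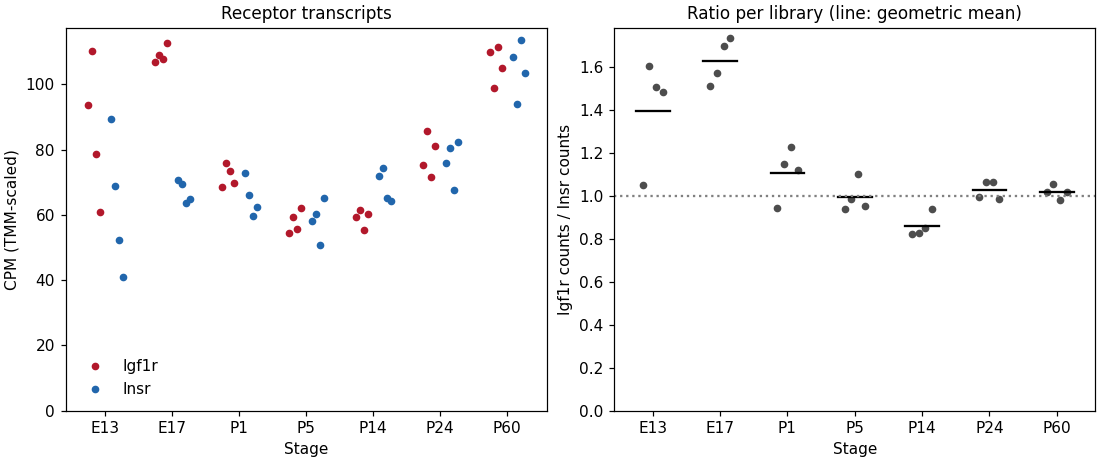
Left, TMM-scaled CPM of Igf1r and Insr in each library by stage; right, the ratio of Igf1r to Insr counts per library, with a line at the geometric mean and a dotted line at 1. The ratio is between 1.51 and 1.74 in the 4 E17 libraries, above all 4 P1 libraries, and between 0.981 and 1.05 at P60.

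Among the binding proteins, Igfbp2 showed the steepest decline. The gene lies at chr1:72824503-72852474 on the plus strand, and its product is a secreted IGF carrier best known from fetal tissues. At E13 it stood at 38.2, 99.7, 95.4 and 184 CPM. With its longest transcript at 62.1% GC, it was lowest in replicate 1 and highest in replicate 4, the libraries with the lowest and highest GC slopes, and replicate 4 was also highest in erythroid markers. The E13 to E17 difference was log2 -3.60 with the GC trend removed and -3.36 without E13 replicate 4. By E17 the libraries read 7.75, 7.34, 9.23 and 5.84 CPM, and at P1 5.72, 9.41, 11.6 and 12.8 CPM. P5 gave 8.75, 9.65, 11.1 and 7.38 CPM. The 3 stages from E17 to P5 overlapped, well below every E13 library. A second drop came with P14, at 0.818, 1.24, 1.47 and 2.24 CPM, followed by 0.946, 0.471, 1.04 and 1.39 CPM at P24. At P60 Igfbp2 was at 0.512, 0.363, 0.187 and 0.188 CPM, from 7, 5, 3 and 3 reads. Igfbp2 fell by 3.78 ± 0.35 on the log2 scale from E13 to E17 (edgeR adjusted p = 4.6e-10) and changed by log2 -2.64 ± 0.37 from P5 to P14 (edgeR adjusted p = 3.5e-06). Between P1 and P60 it fell by 4.998 ± 0.49 on the log2 scale, 32.0-fold (edgeR adjusted p = 1.4e-09). The P24 to P60 difference of -1.68 ± 0.61 missed the threshold (edgeR adjusted p = 0.0614).

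Igfbp3, the main IGF carrier of the circulation (chr11:7206086-7213923, minus strand), peaked at E17. E13 libraries held 48.6, 122, 56.8 and 59.0 CPM, and E17 libraries 163, 152, 147 and 141 CPM. Its highest E13 value was in replicate 2, the library with the skeletal muscle transcripts, and whether the 2 are related was not tested. At P1 the levels were 73.5, 72.2, 78.7 and 65.7 CPM, and at P5 57.8, 56.9, 52.3 and 56.5 CPM. From there Igfbp3 stood at 43.2, 27.5, 27.6 and 30.6 CPM at P14, 24.99, 13.6, 37.4 and 29.6 CPM at P24, and 17.8, 11.03, 17.5 and 22.4 CPM at P60. Adjacent stages did not overlap from E13 to P14, and P14, P24 and P60 did. Igfbp3 rose 2.11-fold from E13 to E17 (log2 1.07 ± 0.25, edgeR adjusted p = 0.00052) and fell by 1.06 ± 0.25 on the log2 scale from E17 to P1 (edgeR adjusted p = 0.00173). Without E13 replicate 2 the rise was 1.43, and without any 1 of E13 replicates 1, 3 and 4 it was 0.92 to 1.00, just under 2-fold. Over P1 to P60 Igfbp3 fell by 2.08 ± 0.26 on the log2 scale (edgeR adjusted p = 1.1e-07).

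Igfbp5, per kilobase of exon the most abundant of the 9 from E13 to P5 (chr1:72857932-72874884, minus strand), encodes a binding protein that also attaches to extracellular matrix. Its E13 libraries held 1916, 4319, 3038 and 2073 CPM, with the highest again in replicate 2. At E17 they held 816, 728, 642 and 640.1 CPM, all below E13. The P1 libraries read 338, 268, 535 and 295 CPM, the P5 libraries 412, 384, 421 and 399 CPM, and the P14 libraries 424, 298, 272 and 388 CPM. Later levels spread more widely, at 534, 314, 722 and 785 CPM at P24 and 805, 542, 492 and 539.6 CPM at P60. Below E13, all neighbours in the order of stage levels overlapped. Igfbp5 fell by 2.01 ± 0.26 on the log2 scale from E13 to E17, 4.02-fold (edgeR adjusted p = 2.7e-07), and by 1.76 without E13 replicate 2. The E17 to P1 difference of -0.98 ± 0.26 (edgeR adjusted p = 0.0047) was just short of 2-fold. From P1 to P60 it was 0.73 ± 0.26 higher (edgeR adjusted p = 0.0159, up to 0.0871 over the alternatives), below 2-fold.

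Igfbp4 (chr11:99041244-99054392, plus strand), whose product holds back IGF action and is cleaved by the protease PAPP-A, changed little after E17. It read 139, 223, 203 and 303 CPM at E13 and 146, 126, 121 and 115 CPM at E17. Like Igfbp2 at E13, Igfbp4 was lowest in replicate 1 and highest in replicate 4, the libraries with the lowest and highest GC slopes. Replicate 4 was also highest in erythroid markers. From P1 to P60 the stage means of Igfbp4 stayed between 89.6 ± 17.5 CPM at P14 and 119.6 ± 25.9 CPM at P60 (SD, n = 4), and all neighbours in its order overlapped. The largest difference between adjacent stages, -0.77 ± 0.24 on the log2 scale from E13 to E17 (edgeR adjusted p = 0.00682), was below 2-fold. With scaling by library size only it was -1.013 (edgeR adjusted p = 0.00087), just past 2-fold.

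Igfbp6 and Igfbp7 ran the other way. Igfbp6 (chr15:102144362-102149511, plus strand) was lowest at E13, at 0.563, 1.13, 0.722 and 0.842 CPM, from 16 to 28 reads a library. At E17 it had reached 19.8, 17.5, 19.4 and 13.9 CPM. The 4 libraries read 10.1, 10.4, 32.9 and 16.1 CPM at P1 and 20.7, 22.7, 25.5 and 10.8 CPM at P5. E17, P1 and P5 overlapped, in a plateau above every E13 library. Levels at P14 were 145, 75.2, 102 and 134 CPM. At P24 they were 399, 75.4, 461 and 415 CPM, and at P60 412, 216, 406 and 449.8 CPM. P24 replicate 2 thus stood at a P14 level and the other 3 P24 libraries at a P60 level. Igfbp6 rose 21.8-fold from E13 to E17 (log2 4.45 ± 0.52, edgeR adjusted p = 3.4e-08) and 5.74-fold from P5 to P14 (log2 2.52 ± 0.41, edgeR adjusted p = 2.9e-05). A further rise of 1.56 ± 0.39 from P14 to P24 (edgeR adjusted p = 0.0147) was 1.89 without P24 replicate 2 and lost its call without P14 replicate 2, P14 replicate 3 or P24 replicate 3, with edgeR adjusted p of 0.0671, 0.0506 and 0.0645. P60 against P1 the gene rose 21.3-fold (log2 4.41 ± 0.45, edgeR adjusted p = 2.1e-09).

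Igfbp7 (chr5:77349240-77408041, minus strand) climbed more evenly. It read 7.35, 6.50, 7.80 and 7.68 CPM at E13, 44.6, 30.9, 39.1 and 33.3 CPM at E17, and 53.7, 47.6, 57.3 and 53.6 CPM at P1. The P5 libraries held 79.2, 73.2, 82.6 and 75.5 CPM, and those of P14 176, 116, 139 and 135 CPM. E17, P1, P5 and P14 each lay wholly above the stage before. At P24 the levels were 193, 115, 223 and 216 CPM and at P60 247, 172, 181 and 204 CPM, and these overlapped with each other and with P14. Igfbp7 rose 5.04-fold from E13 to E17 (log2 2.33 ± 0.17, edgeR adjusted p = 6.4e-12). The following steps were each below 2-fold, at 0.52 ± 0.16 to P1 (edgeR adjusted p = 0.0156), 0.55 ± 0.16 to P5 (adjusted p = 0.0165) and 0.87 ± 0.16 to P14 (adjusted p = 0.00014). The first pair did not keep an adjusted p under 0.05 in each alternative, with values of 0.0912 and 0.133 when the GC trend was removed and 0.0825 and 0.143 with scaling by library size only. Between P1 and P60 Igfbp7 rose 3.79-fold (log2 1.92 ± 0.16, edgeR adjusted p = 9.3e-11). At its 3' end 85 exon bases of Igfbp7 are shared with Polr2b on the opposite strand in GENCODE M21, and whether the counting used strand is not stated.

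**Figure D3:**
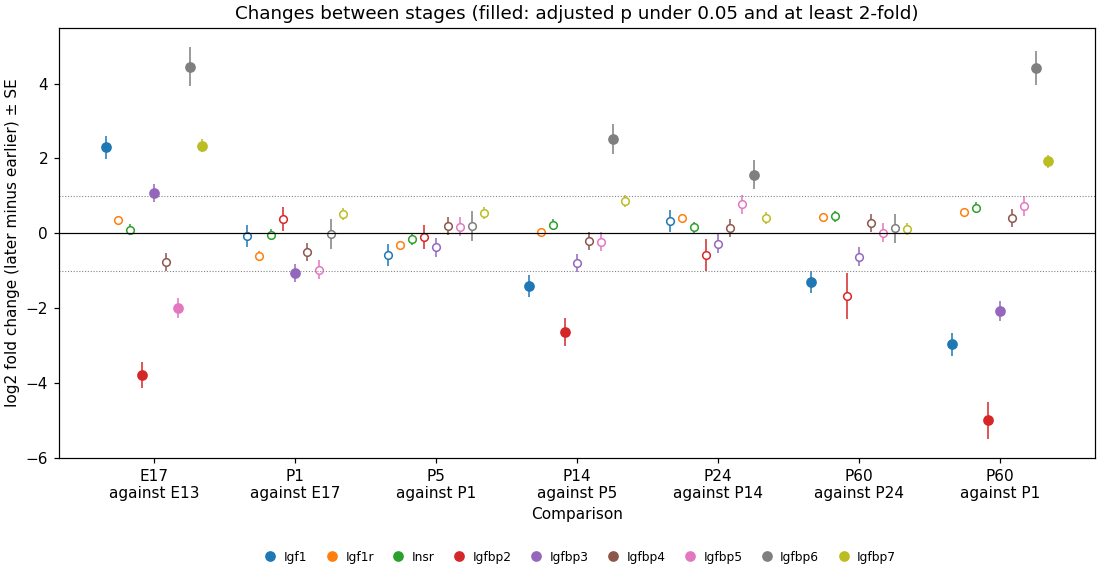
Log2 fold changes (later minus earlier stage, points with SE bars) of the 9 genes in 7 comparisons; filled points had an edgeR adjusted p under 0.05 and at least 2-fold, and dotted lines mark 2-fold. From E13 to E17 there are 6 filled points, from P1 to P5 none.

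Counted over the 9 genes, from E13 to E17 4 genes rose and 2 fell, beside 35.5% of all genes tested that passed the same rule, 14.2% higher and 21.2% lower. From E17 to P1 0 rose and 1 (Igfbp3) fell, with 11.7% of all genes passing, 6.31% higher and 5.41% lower. No member passed the edgeR test from P1 to P5, where 5.84% of all genes did (4.05% higher, 1.79% lower), although 2 members (Igf1r and Igfbp7) had an unadjusted p under 0.05, and 1 of them (Igfbp7) an adjusted one. The counts by limma-voom and DESeq2 in that comparison were also 0. From P5 to P14 Igfbp6 rose and Igf1 and Igfbp2 fell, beside 12% of all genes (7.11% higher, 4.91% lower). The single change from P14 to P24 was the rise of Igfbp6, beside 2.65% of all genes (1.51% higher, 1.14% lower), and from P24 to P60 the fall of Igf1, beside 5.96% (2.55% higher, 3.41% lower). P60 against P1, 2 genes rose and 3 fell, beside 35.5% of all genes, 20.3% higher and 15.2% lower. The median log2 fold change of the 9 genes in that comparison was 0.57 and that of all genes -0.02. Along all 7 stages together, 7 of the 9 changed by at least 2-fold with an adjusted p under 0.05 in the edgeR test of all stage terms, beside 70.3% of all genes. The others were Igf1r and Insr, whose highest and lowest stage means were 0.91 and 0.84 apart on the log2 scale (edgeR adjusted p = 2.3e-08 and 0.00014).

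Levels can be set against each other between genes only per length of exon, as CPM per kilobase. On that scale the summed level of the 6 binding protein genes was 607 ± 199 at E13, 168 ± 38.4 at P1 and 632 ± 131 at P60 (SD, n = 4). These sums were not tested. Igfbp5 held 77.1% of the sum at E13, 48.0% at E17, 34.98% and 34.5% at P1 and P5, and 18.7% at P14. Igfbp6 held 0.122% at E13 and 52.2% at P60, and Igfbp7 had 1.09% at E13, 38.2% at P14 and 26.7% at P60. The share of Igfbp3 was highest at E17, at 19.7%. The leading gene was thus Igfbp5 at E13 and Igfbp6 at P60. For each unit of Igf1, the sum was 216 ± 119 units at E13, 14.2 ± 1.49 at E17 and 10.4 ± 3.00 at P1. At E13 it ran from 72.6 units in replicate 1 to 352 in replicate 4, the libraries with the lowest and highest GC slopes. Igf2, at 1347 CPM at E13, 1668 CPM at P14 and 60.8 CPM at P60, is not counted as ligand in this ratio. For each unit of Igf1, the sum was 17.6 ± 1.497 units at P5 and 77.3 ± 21.2 at P14, then 109.8 ± 27.6 at P24 and 297 ± 48.1 in the adult, always on the CPM per kilobase scale. Both receptors were far below the summed binding proteins on it, with Igf1r between 3.45 and 6.49 and Insr between 4.26 and 7.63 as stage means. Single binding proteins were lower still at some stages, namely Igfbp6 at E13 (0.732), Igfbp2 at E17 (4.08) and from P14 to P60 (0.781 to 0.169), and Igfbp3 at P60 (5.48). Igf1 was above both receptor genes at E17, P1 and P5 and below both at E13 and P60.

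**Figure D4:**
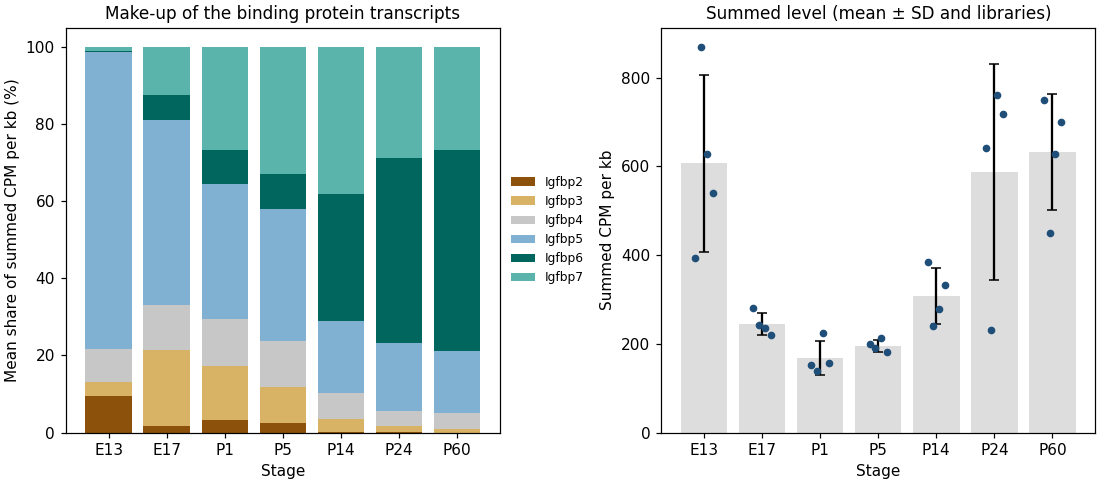
Left, mean share of each of 6 binding protein genes in their summed CPM per kilobase of exon by stage; right, the sum itself as stage mean (bar) with SD and the 4 libraries as points. Igfbp5 makes up 77.1% at E13 and 16.0% at P60, and Igfbp6 0.122% and 52.2%.

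Markers of several other cell types of the nerve were also higher at the late stages, when Igfbp6 and Igfbp7 were highest. The summed level of 3 epineurial markers (Pcolce2, Ly6c1, Clec3b) ran from 1.61 to 2.75 CPM at E13, 3.33 to 12.2 CPM at P1, 61.8 to 77.5 CPM at P14 and 114 to 127 CPM at P60. From P14 to P60 that sum followed Ly6c1 (34.1 to 54.3 CPM at P14, 95.7 to 112 CPM at P60), whereas Clec3b was at 18.3 to 24.04 CPM at P14, 12.7 to 41.7 CPM at P24 and 8.42 to 15.8 CPM at P60. The level of 3 perineurial markers (Slc2a1, Itgb4, Cldn1) ran from 39.1 to 72.7 CPM at E13, 150.1 to 226 CPM at P1, 452 to 551 CPM at P14 and 989 to 1387 CPM at P60. Most of it at P60 was Itgb4 (701 to 912 CPM), while Cldn1 overlapped between P1 (47.5 to 70.2 CPM), P14 (46.6 to 111 CPM) and P60 (57.1 to 234 CPM). The paper also reports Slc2a1 in an endothelial cell cluster, so this sum does not set the perineurium apart. All 3 markers of each list were detected at each stage. Blood vessel and fat markers were higher late as well. The 4 pericyte and smooth muscle markers had means of 172 CPM at P1, 507 CPM at P14 and 564 CPM at P60, the 3 endothelial markers 114, 192 and 289.9 CPM, and the 4 adipocyte markers 0.144, 31.8 and 92.5 CPM. Of the 4 genes listed for endoneurial cells, Pdgfra and Cd34 are also expressed in the outer layers, so their sum (stage means of 267 to 355 CPM) does not set the endoneurium apart. Col2a1 in that list was at 38.1 to 57.0 CPM at P1, 53.4 to 68.7 CPM at P5, 2.81 to 5.35 CPM at P14 and 1.865 to 4.64 CPM at P60, whereas Sox9 was at 7.79 to 9.65 CPM at P1, 8.89 to 11.9 CPM at P5, 6.54 to 10.1 CPM at P14 and 6.09 to 11.1 CPM at P60. Col2a1 was thus lower after P5, as were Igf1, Igfbp2 and Igfbp3, and Sox9 overlapped between P1 and P60. Their part in the members' levels was not tested.

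P1 replicate 3, the highest P1 library for Igfbp6 and Igfbp5, had the highest epineurial sum of its stage (12.2 CPM against 3.33 to 6.78). That excess was Clec3b (5.65 CPM against 0.125 to 0.341). Ly6c1 (5.91 CPM) and Pcolce2 (0.693 CPM) were near their levels in replicate 1 (5.87 and 0.729 CPM), the lowest P1 library for Igfbp6. P24 replicate 2, the lowest P24 library for Igf1, Igfbp3, Igfbp4, Igfbp5, Igfbp6 and Igfbp7, was lowest in the sums for epineurial (72.9 CPM against 111 to 124), perineurial (518 against 759.6 to 785), endoneurial (201 against 331 to 436), pericyte and smooth muscle (384 against 486 to 549), endothelial (144 against 224 to 249), immune (76.6 against 117 to 130.4) and adipocyte markers (1.41 against 37.7 to 74.0). Its Schwann cell sum, at 52390 CPM, was the highest of the stage. P14 replicate 4, with the second highest Igfbp6 of its stage (134 CPM), had the highest perineurial sum (551 CPM against 452 to 523) and the highest Clec3b (24.04 CPM), but the lowest Ly6c1 (34.1 CPM) and with it the lowest epineurial sum (61.8 CPM). P60 replicate 2, the lowest P60 library for Igfbp6 (216 CPM), had the lowest perineurial sum (989 CPM against 1255 to 1387), Cldn1 (57.1 against 158 to 234 CPM) and Pcolce2 (1.96 against 6.84 to 7.66 CPM). Its epineurial sum, mostly Ly6c1, was 114.3 CPM, near the 114.1 CPM of replicate 1, which held 412 CPM of Igfbp6. The part of these cell types, or of remnants of the stripped layers, in the levels of Igfbp6 and Igfbp7 was not tested.

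**Figure D5:**
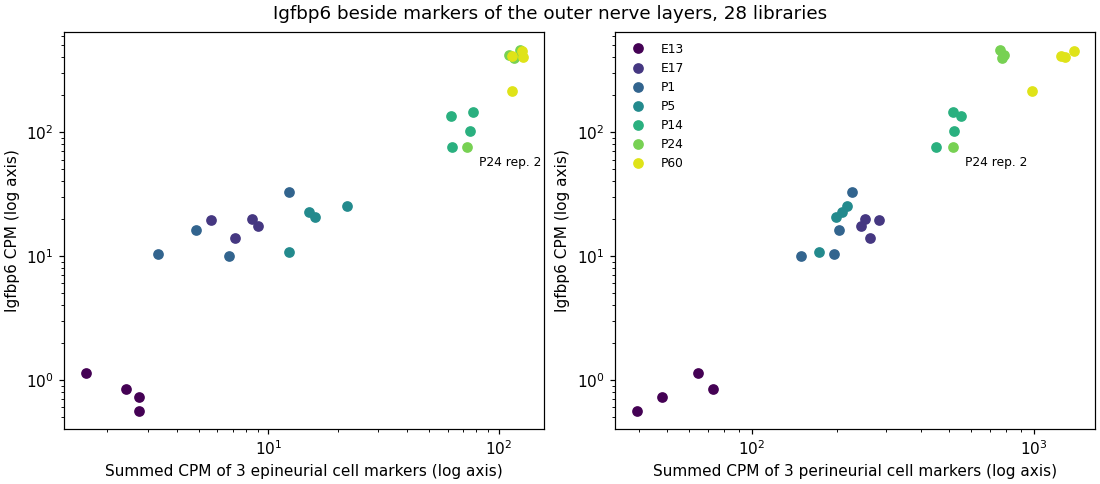
Igfbp6 CPM against the summed CPM of 3 epineurial (left) and 3 perineurial markers (right) in 28 libraries coloured by stage, on log axes. P24 replicate 2, at 75.4 CPM of Igfbp6, lies among the P14 libraries, which read 75.2 to 145 CPM.

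For each gene, the 3 genes with the most similar pattern were those with the highest Pearson r over log2 CPM of the 28 libraries, which share stages and scaling, so that r is a description. Igf1 ran closest to Galnt4, Plod2 and Lman1 (r = 0.949, 0.949 and 0.948). Igf1r had its closest partners in Frmd4a, Akap12 and Myzap (0.894 to 0.885), and Insr in Vps13c, Amy1 and Dop1a (0.932 to 0.904). Igfbp2 ran with Nkain1, Pabpc4 and Tubb2b (0.981 to 0.974), Igfbp3 with Cit, Ccdc8 and Sfrp1 (0.969 to 0.957), and Igfbp4 with Sh3bp4, Fbln1 and Slc27a3 (0.937 to 0.902, and 0.857, 0.815 and 0.789 over the 24 libraries without E13). Igfbp5 was nearest to Kalrn, Hoxc5 and Nhsl1 (0.951 to 0.943), and over the 24 libraries without E13 those r were 0.850, 0.864 and 0.770. Igfbp6 paired with Prelp, a matrix proteoglycan, Cavin1, a caveolar coat protein, and Ly6a (0.978 to 0.976). Igfbp7 paired with Steap4, Smoc2 and C1s1 (0.988 to 0.985). Between the 9 genes themselves r was highest for Igfbp6 and Igfbp7 (0.964), Igfbp4 and Igfbp5 (0.854) and Igf1 and Igfbp3 (0.754), and lowest for Igfbp2 with Igfbp6 (-0.932) and with Igfbp7 (-0.914).

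The rest of the pathway was read from a list of 50 other genes, of which 46 passed the filter. Ins1, Ins2, Igfbp1 and Irs4 did not, and Ins1 had no read in any library. From E13 to E17 3 of the 46 rose and 8 fell, 23.9% against 35.5% of all genes tested, and P60 against P1 7 rose and 5 fell, 26.1% against 35.5%. In the 5 comparisons between, counts of rising and falling genes were 3 and 3 from E17 to P1, 1 and 0 from P1 to P5, 2 and 2 from P5 to P14, 1 and 1 from P14 to P24, and 0 and 2 from P24 to P60. These were 13%, 2.17%, 8.7%, 4.35% and 4.35% of the 46, beside 11.7%, 5.84%, 12%, 2.65% and 5.96% of all genes.

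Of the other ligands and receptors, Igf2, the growth factor of fetal life, stood at 1347 ± 292 CPM in the E13 nerve, 783 ± 136 CPM in the P1 nerve and 1668 ± 198 CPM by P14 (SD, n = 4). The P5 to P14 difference was 0.85 ± 0.18 on the log2 scale, below 2-fold, with no overlap (edgeR adjusted p = 0.00084). Igf2 fell by 1.11 ± 0.18 on the log2 scale from P14 to P24 (775 ± 147 CPM, edgeR adjusted p = 0.00029) and by 3.67 ± 0.20 more to P60 (60.8 ± 17.1 CPM, edgeR adjusted p = 1.2e-12). In GENCODE M21 3596 exon bases of Igf2 are shared with the overlapping gene Gm49394 on the same strand, so its counts are uncertain. Igf2r, the receptor that clears IGF2, went from 228 ± 20.02 CPM at E17 to 48.5 ± 4.83 CPM at P60 and fell by 1.303 ± 0.19 on the log2 scale between P1 and P60 (edgeR adjusted p = 9e-07). Insrr, the insulin receptor-related receptor, was at 6.95 ± 2.78 CPM at E13 and at most 0.0650 CPM as a mean at any later stage. Igfbpl1, a binding protein-like gene, was likewise seen at E13 (100.3 ± 55.5 CPM) and at 0.470 CPM or less later. Pappa2, a protease that cleaves IGFBP3 and IGFBP5, stood at 13.1 ± 8.39 CPM at E13 and at most 0.404 CPM after it. The protease inhibitor gene Stc1 was at 6.93 ± 3.24 CPM at E13 and 0.404 ± 0.297 CPM at P60. Neuron cell body markers were also highest at E13 (226 to 353 CPM, against at most 26.6 CPM later), and their part in these E13 levels was not tested.

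Of 7 receptor substrates and adaptors tested, 1 rose from E13 to E17, 1 rose from E17 to P1, 1 fell from P5 to P14 and 1 fell between P1 and P60. This was 14.3% in each, beside 35.5%, 11.7%, 12% and 35.5% of all genes. Grb10, an adaptor that dampens insulin and IGF1 receptor signalling, went from 1001 ± 20.1 CPM at E17 to 48.5 ± 6.50 CPM at P60 and fell by 3.55 ± 0.15 on the log2 scale between P1 and P60 (edgeR adjusted p = 4e-17). Grb14, of the same family, rose 2.24-fold from E17 to P1 (23.5 ± 1.89 to 52.6 ± 4.77 CPM, edgeR adjusted p = 6.8e-07) and stood at 90.1 ± 3.47 CPM at P60. Gab1, a docking protein, rose 2.13-fold from E13 to E17 (edgeR adjusted p = 1.7e-09). In the PI3K, AKT and mTORC1 branch, 2 of 23 genes changed from E13 to E17 (8.7%, beside 35.5% of all genes) and 5 of 23 between P1 and P60 (21.7%, beside 35.5% of all genes). Between P1 and P60 the regulatory subunit gene Pik3r1 rose 2.35-fold (213 ± 14.4 to 501 ± 18.4 CPM) and Foxo4, a transcription factor restrained by AKT, rose 4.27-fold (44.0 ± 5.75 to 188 ± 19.0 CPM), with edgeR adjusted p of 2.7e-06 and 4.8e-12. The related subunit gene Pik3r3 fell by 1.88 ± 0.21 on the log2 scale in the same span (edgeR adjusted p = 1.8e-08). It shares 1289 exon bases on the same strand with Gm49337. On the growth hormone side, the feedback inhibitor gene Socs2 fell by 2.11 ± 0.16 on the log2 scale from E13 to E17 (edgeR adjusted p = 6.5e-12), rose by 1.39 ± 0.15 to P1 (edgeR adjusted p = 6.8e-08), and fell by 1.68 ± 0.16 between P1 and P60 (edgeR adjusted p = 6.1e-10). Stat5a, a transcription factor of the same axis, rose 2.598-fold from E17 to P1 (edgeR adjusted p = 3.1e-05). Jak2, the kinase bound by the growth hormone receptor, ranged from 34.5 ± 22.2 CPM at E13 to 94.6 ± 7.11 CPM at P5 as stage means.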

How the data were processed

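The 28 libraries were read from 1 deposited table of raw counts for each gene, which the authors had not normalized. They sequenced stranded TruSeq poly-A libraries single-end on a HiSeq4000, trimmed the reads, aligned them with STAR 2.6.1c and counted with featureCounts. The build is GRCm38.p5 in the submitters' processing notes, while the methods give a human build name, and settings for strand and reads with several alignments are not given in the sources used here. All columns belonged to a library of the timeline. Of 41605 gene identifiers, 41519 had an entry in GENCODE M21 (GRCm38), the source of symbols, positions and exon lengths, and 86 had no match. Coordinates are 1-based.

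Genes were filtered with filterByExpr by stage and tested in edgeR 4.0.16 (R 4.3.3) by robust quasi-likelihood fits on TMM-scaled library sizes, with stage as the only term and all 28 libraries sharing 1 estimate of the spread (common dispersion 0.0439). The 6 pairs of adjacent stages, P60 against P1, and all stage terms together were tested. The ratio of Igf1r to Insr was tested by two-sided exact permutation in scipy 1.17.1. Scripts were tested on simulated counts. Alternatives used other scalings, filters, sets of libraries, a replicate block, GC correction, limma 3.58.1 (voom) and DESeq2 1.42.0.

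The 9 members, the pathway and marker lists and the tests were chosen with earlier results of these data known. Genes named were the members, up to 3 genes of each pathway group with the largest range of stage means (and at least 5 CPM at some stage), and the 3 genes most correlated with each member (at least 10 CPM at some stage). Totals of 13899895 to 37662780 counts limit precision mainly for Igfbp2 after P5 and Igfbp6 at E13. The replicates are separate mice or pools of embryos, and reads are without molecular identifiers.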

Additional observations from a re-analysis of the deposited data

Results flagged for a closer look

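In 3 of 70 groups of 4 libraries, 1 library lay far from the other 3 by the gap between it and its nearest neighbour relative to the whole range, and chance alone gives about 1 in 20. Igfbp3 at E13 was 121.9 CPM in replicate 2 against 48.6 to 59.0 CPM in the others, in the library whose skeletal muscle markers summed to 511 CPM. Igfbp5 at P60 was 804.8 CPM in replicate 1 against 492 to 542 CPM, beside 388 CPM against 258 to 319 CPM for the sum of Pdgfra, Sox9, Col2a1 and Cd34. Igfbp6 at P24 was 75.42 CPM in replicate 2 against 399 to 461 CPM, in the library with the lowest epineurial, perineurial, endothelial, pericyte, immune and adipocyte marker sums of its stage. The part of these markers in the 3 values was not tested.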

How the results depend on the processing

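The 17 rises and falls of single genes between stages kept their direction under every alternative run, and 15 of them also kept their call. The rise of Igfbp3 from E13 to E17 was lost in 5 of 19 alternatives (log2 0.77 to 1.43) and that of Igfbp6 from P14 to P24 in 5 of 19 (log2 1.37 to 1.89, adjusted p 0.000436 to 0.142). With scaling by library size only, the count from E13 to E17 stayed at 6, as Igfbp4 (log2 -1.013) passed in place of Igfbp3. That count was 5 without E13 replicate 1, 3 or 4. The number of genes called from E17 to P1, 1 in the report, was 2 with DESeq2 size factors, scaling by library size only, limma-voom or the DESeq2 Wald test, where Igfbp5 joined, and 1 to 2 leaving out single libraries (2 without E17 replicate 3, E17 replicate 4 or P1 replicate 3). From P14 to P24 it was 0 in place of 1 with no filter on low counts or with only the stages compared, and 0 to 1 leaving out single libraries (0 without P14 replicate 2, P14 replicate 3 or P24 replicate 3). From P24 to P60 it was 2 in place of 1 with the GC trend removed, without the E13 libraries in the fit, with limma-voom or with the DESeq2 Wald test, where Igfbp2 joined, and 1 to 2 leaving out single libraries (2 without P24 replicate 2). Dropping the 2-fold minimum gave 8 genes from E13 to E17 in place of 6, and 4 from E17 to P1. It gave 1 from P1 to P5, 5 from P5 to P14 and 2 for the step to P24. It also gave 3 from P24 to P60 and 8 from P1 to P60. Without the minimum, 11014 of the 17700 genes tested passed from E13 to E17, and 5225 from E17 to P1. From P1 to P5 3114 of all genes tested passed without it, and from P5 to P14 5233. These counts were higher since smaller differences then count. The cause of the other changes was not tested. The log2 ratio of Igf1r to Insr from P24 to P60, -0.012 in the report, was 0.006321 without P24 replicate 2, 0.004412 without P24 replicate 3 and 0.004436 without P60 replicate 3 (range -0.03169 to 0.006321). Scaling by library size only moved the median of all genes from -0.08 to -0.33 from E13 to E17 and by up to 0.2 elsewhere. Leaving out the 3 libraries with a GC trend, chosen after seeing the data, gave 5 genes from E13 to E17 and 5 from P1 to P60. Replicate numbers did not clearly pair the libraries, as no comparison had all 4 same-number correlations above 0.1 (range -0.0593 to 0.292). For P1 against E17 and P60 against P1, however, 3 of the 4 later libraries were closest to the earlier library of their own number. The check thus cannot settle whether libraries of the same number share a factor. With a replicate block the counts of genes called stayed 6, 1, 0, 3, 1, 1 and 5. Depth limits Igfbp2 at P60, where a library held 3 to 7 reads. Among the differences below 2-fold, the adjusted p exceeded 0.05 in at least 1 alternative for Igf1r from E13 to E17 (up to 0.552) and from P14 to P24 (0.118), Igfbp7 from E17 to P1 (0.0912) and from P1 to P5 (0.143), Igfbp3 from P5 to P14 (0.0567), Insr from P24 to P60 (0.119) and Igfbp5 between P1 and P60 (0.0871).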
